A study of Mus musculus with 8 samples.

Results

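Nucleostemin (NS, encoded by Gnl3) is a GTP-binding protein of the nucleolus, and the genes described here encode nucleolar proteins that, like NS, serve the making of ribosomes. The list held 43 such genes, written down by name, and 42 of them had a probe set that carries 1 gene symbol, out of 18194 genes measured. Mrto4 was the exception: its probe set is annotated to several genes and was not used. Each gene was represented by the probe set with the highest mean signal over the 8 arrays. All 42 had a mean signal above the median of all genes, between 8.84 and 14.15 on the log2 scale.

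In the nucleolus, RNA polymerase I transcribes the ribosomal RNA precursor, which is modified by small nucleolar ribonucleoproteins (snoRNPs), cut by a large processing complex for the small subunit, and packed with ribosomal proteins by assembly factors for either subunit. Embryonic stem cells (ESCs) divide fast and have prominent nucleoli. The proteins of Pes1, Ddx21, Ebna1bp2 and Npm1 have been found in complexes with NS. The comparison asked whether transcripts of this machinery changed when NS was lost.

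The arrays hold RNA of male 129sv NS tet-off ESCs. In these cells both copies of the Gnl3 gene are disrupted and an NS cDNA in the ROSA26 locus is shut off by doxycycline (Dox), so the controls also live on transgenic NS. Cells with an empty vector, cells with that vector in the 2i condition (inhibitors of MEK and of GSK3b), Nanog-overexpressing cells and Esrrb-overexpressing cells were each taken without Dox and after 6 days of Dox, with 1 array per condition. Each background thus gives a pair of arrays, and values for arrays or pairs run throughout in the order empty vector, 2i, Nanog, Esrrb. Cells with constitutively active Stat3 are not analysed here. Nothing in the labels says that the pairs are separate clones or days, and because bulk RNA was measured, fewer cells of a type and less RNA per cell cannot be told apart. The log2 signal of Gnl3 was 13.47, 13.54, 13.68 and 13.61 without Dox and 7.79, 8.01, 9.13 and 8.61 with Dox. Gnl3 was thus far lower in 4 of 4 pairs, and it stood highest among Dox-treated arrays in the Nanog-overexpressing cells. The MEK-induced gene Dusp6 was at 10.97 in empty vector cells and at 10.95 in 2i cells without Dox, but at 7.63 in 2i cells with Dox. The 2i array without Dox thus lacked the fall of a MEK target that its label calls for. The common test, and the size of differences between backgrounds, are therefore also given without the 2i pair. The Nanog and Esrrb probe sets did not check the vectors: Nanog was at 12.35 on the Nanog-overexpressing and 12.81 on the empty vector Dox-untreated array, and Esrrb at 11.27 on the Esrrb-overexpressing and 11.31 on the empty vector array. All 10 ESC markers were above the median of all genes on each of the 8 arrays, but their level was not constant. Their mean log2 signal was 12.55, 12.63, 12.59 and 12.63 without Dox and 12.26, 12.59, 12.67 and 12.83 with Dox. In the empty vector pair 6 of the 10 were lower with Dox, Klf4 the most, from 12.90 to 11.68, and the rest were higher.

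The log2 ratio is the signal with Dox minus that without Dox in 1 background. With 1 array per condition a single pair has no replicate and no test, so the Dox response common to the 4 pairs was tested with limma, with the background as a block, and p-values were adjusted over all 18194 genes (Benjamini-Hochberg). Its coefficient is the mean log2 ratio over the 4 pairs.

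With NS lost, these transcripts moved little. No member changed over 2-fold in any pair, whereas 9.22%, 7.91%, 2.3% and 2.03% of all genes did. At 1.5-fold, 5 of the 42 were past the threshold in the empty vector pair (20.9% of all genes), 1 in the 2i pair (20.1%), and 0 with Nanog (8.62%) or Esrrb (8.39%). Those 5 were Noc4l, Rrp1b, Nop56 and Gar1, all lower, and Utp20, higher, which was also the 1 in the 2i pair. The median log2 ratio of the 42 was -0.09, -0.10, 0.04 and 0.02, beside -0.03, 0.03, -0.01 and 0.00 over all genes. The SD of the log2 ratio over the members was 0.36, 0.31, 0.25 and 0.23, against 0.64, 0.60, 0.37 and 0.37 over all genes.

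**Figure D1:**
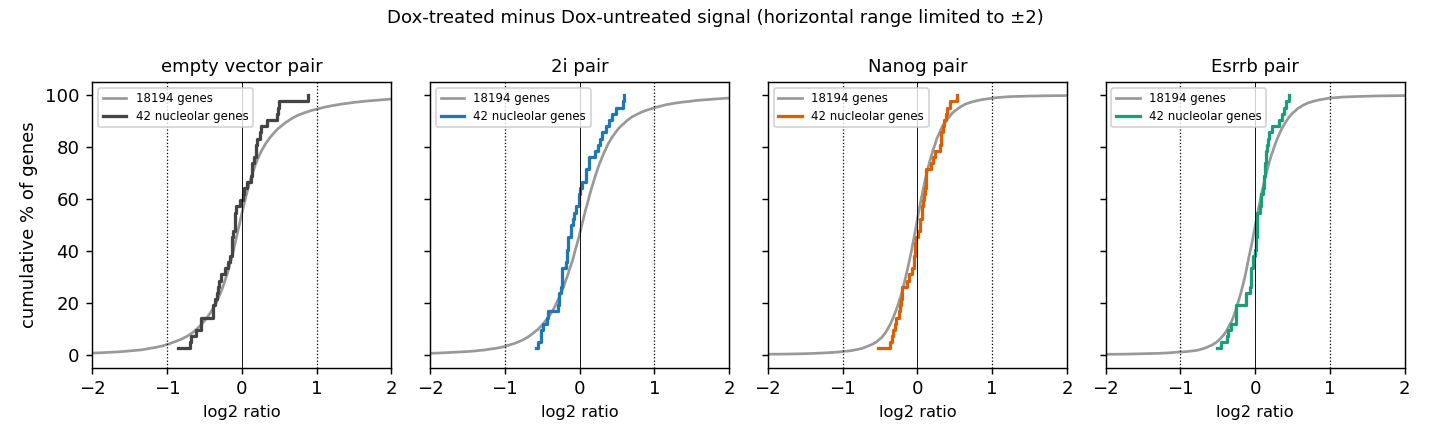
Cumulative percent of genes (vertical axis) by log2 ratio, Dox over no Dox (horizontal axis, shown from -2 to 2), with a panel per pair, for all 18194 genes in grey and the 42 nucleolar genes in colour, with dotted lines at 2-fold. The coloured steps end inside the dotted lines in each pair, at -0.85 and 0.88 in the empty vector pair and at -0.51 and 0.45 in the Esrrb pair.

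Within these narrow limits, 7 of the 42 genes passed limma's test of the common response. Nop56, Nop58, Gar1 and Nop14 fell and Utp20, Nhp2 and Ebna1bp2 rose. The 4 lower ones are 9.52% of the members, where 3.39% of all genes passed in that direction, and the 3 higher ones are 7.14%, where 3.69% of all genes passed. Genes of high signal passed more often in general. When only genes above the median signal were fitted, 18.6% of them passed, and 11 of the 42 members did (26.2%): the same 7 with Noc4l, Ubtf and Wdr12, lower, and Rcl1, higher. The median coefficient of the members was -0.03, with 22 of the 42 below 0. The log2 ratio had the same sign in 4 of 4 pairs for 22 members: 12 were lower (19.1% of all genes were lower in 4 of 4) and 10 higher (18.4% of all genes). The 4 Dox-treated and 4 Dox-untreated arrays did not overlap for 11 members, against 17.7% of all genes. With any 1 pair left out, 0 of the 42 passed: the smallest adjusted p among them from limma was 0.0704, 0.0786, 0.0719 and 0.0754 when the empty vector, 2i, Nanog or Esrrb arrays were left out, in this order. Those fits, of 6 arrays, called 29, 18, 35 and 3 genes in all, and 13, 12, 13 and 16 members had an unadjusted p under 0.05 in them, where 21.7%, 21.9%, 22.7% and 23.2% of all genes had. With all pairs 17 members (40.5%) had, and 27.4% of all genes. When only genes above the median signal were fitted, the shares were near each other, 40.5% of the members and 39.1% of all genes fitted.

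**Figure D2:**
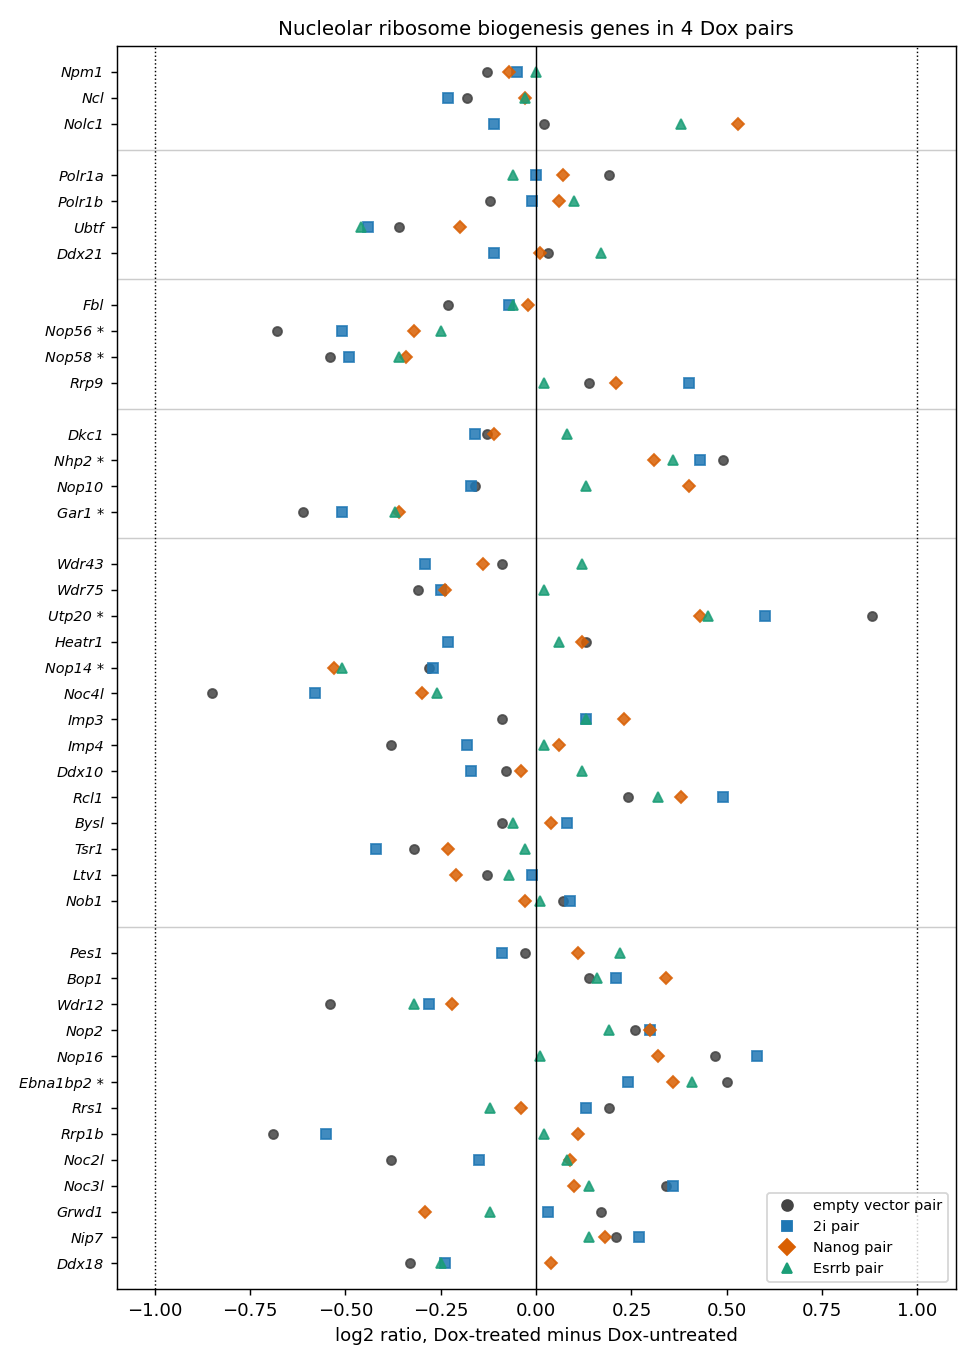
Log2 ratio, Dox over no Dox (horizontal axis), of each of the 42 genes (rows, grouped by role from nucleolar scaffold, RNA polymerase I, box C/D and box H/ACA snoRNPs to small and large subunit factors) in the 4 pairs, with dotted lines at 2-fold and an asterisk for an adjusted p under 0.05 in limma's common test. No point reaches the dotted lines; the points of Nop56, Nop58, Gar1 and Nop14 all lie left of 0 and those of Nhp2, Utp20 and Ebna1bp2 all right of it.

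None of the 3 genes for abundant scaffold proteins passed the test. Npm1 encodes nucleophosmin, a histone and ribosomal protein chaperone, and its signal was 14.27, 14.19, 14.19 and 14.09 without Dox and 14.14, 14.14, 14.12 and 14.09 with Dox. Its coefficient was -0.06 (standard error 0.0393, adjusted p = 0.356 from limma). Ncl encodes nucleolin, an RNA-binding protein of the nucleolus, and had log2 ratios of -0.18, -0.23, -0.03 and -0.03, lower in 4 of 4 pairs with an adjusted p of 0.225 from limma. Other probe sets of Ncl went down to -0.58 with the empty vector and -0.68 in 2i. Nolc1, which encodes the snoRNP chaperone Nopp140, had log2 ratios of different size by background: its signal was 10.87, 10.84, 10.61 and 10.29 without Dox and 10.90, 10.73, 11.15 and 10.67 with Dox. It was 0.53 and 0.38 higher in the Nanog and Esrrb pairs and at 0.02 and -0.11 in the empty vector and 2i pairs. The probe sets of Nolc1 disagreed, since a dimmer one had log2 ratios of -0.99, -1.12, -0.16 and -0.11. That was the 1 probe set past 2-fold in any pair among the 90 of these genes.

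Of the genes for RNA polymerase I transcription, the subunits did not pass the test. Polr1a and Polr1b, for the largest subunits of the enzyme, had coefficients of 0.05 and 0.01, and the RNA helicase gene Ddx21 had 0.03, with a dimmer probe set at 0.50, 0.06, 0.50 and 0.26. Ubtf, for the HMG-box factor that activates ribosomal DNA, was at 10.49, 10.51, 10.42 and 10.76 on the Dox-untreated and 10.13, 10.07, 10.22 and 10.30 on the Dox-treated arrays. All 4 Dox-treated values lay below all Dox-untreated ones, and the coefficient of -0.36 just missed the threshold (standard error 0.0801, adjusted p = 0.0516 from limma). Ubtf passed with the arrays centred on their medians, with the mean of its probe sets and among genes above the median signal. The dimmer probe set of Ubtf was lower too, by log2 ratios of -0.76, -0.51, -0.42 and -0.48.

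Box C/D snoRNPs guide 2'-O-methylation of ribosomal RNA. Of their 4 measured genes 2 passed the test, both lower, where 3.39% of all genes passed in that direction. Their core proteins are the methyltransferase fibrillarin (Fbl) and the scaffold proteins Nop56 and Nop58. The signal of Nop58 was 13.31, 13.06, 13.04 and 12.88 on the Dox-untreated and 12.77, 12.58, 12.70 and 12.52 on the Dox-treated arrays. The groups did not overlap, and Nop58 fell to 74.1% of its untreated level (coefficient -0.43, standard error 0.0556, adjusted p = 0.0221 from limma), and it was lower in 4 of 4 pairs. Nop56 was at 12.73, 12.57, 12.62 and 12.39 without Dox and at 12.05, 12.06, 12.30 and 12.13 with Dox. It fell to 73.7% (coefficient -0.44, standard error 0.0837, adjusted p = 0.0408 from limma), and its other probe set had log2 ratios of -0.72, -0.49, -0.34 and -0.37. Without the trend the call of Nop56 ended (adjusted p = 0.0632 from limma). Fbl was not called: its log2 ratios were -0.23, -0.07, -0.02 and -0.06, with an adjusted p of 0.346 from limma. Rrp9, for a protein particular to the U3 snoRNP, had positive log2 ratios of 0.14, 0.40, 0.21 and 0.02 and did not pass either (adjusted p = 0.259 from limma).

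The box H/ACA snoRNPs, which guide pseudouridylation, moved both ways within 1 particle. Their proteins are the pseudouridine synthase dyskerin (Dkc1) and its partners Nhp2, Nop10 and Gar1. Gar1 had a signal of 11.64, 11.45, 11.54 and 11.31 on the Dox-untreated and 11.03, 10.94, 11.18 and 10.94 on the Dox-treated arrays, without overlap. It fell to 72.7% (coefficient -0.46, standard error 0.0729, adjusted p = 0.0300 from limma). Nhp2 was at 12.37, 12.42, 12.37 and 12.22 without Dox and at 12.85, 12.85, 12.68 and 12.58 with Dox, also without overlap. It rose 1.32-fold (coefficient 0.40, standard error 0.0548, adjusted p = 0.0254 from limma, higher in 4 of 4 pairs), and its other probe set had log2 ratios of 0.36, 0.72, 0.49 and 0.63. Dkc1 stayed between -0.16 and 0.08 in the 4 pairs. Nop10 was at 12.29, 12.27, 12.10 and 12.05 without Dox and 12.13, 12.10, 12.50 and 12.18 with Dox, and so stood lower in the empty vector and 2i pairs and higher in the Nanog and Esrrb pairs.

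**Figure D3:**
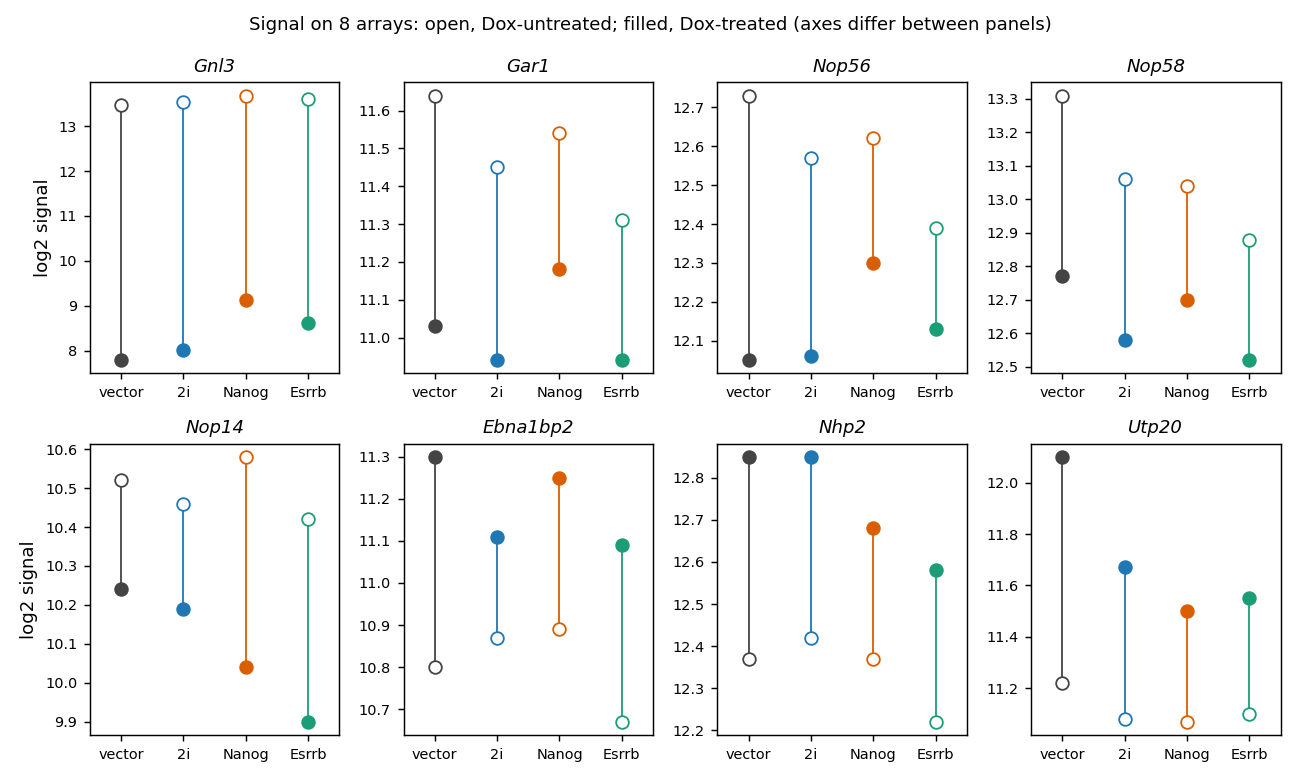
Log2 signal (vertical axes, which differ between panels and do not start at 0) of Gnl3 and of the 7 genes that passed the common test on the 8 arrays (open circles without Dox, filled circles with Dox, 1 colour per background). For each of the 7 genes all filled circles lie on 1 side of all open circles, and the panels of the 7 span far less than that of Gnl3.

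Among 14 factors for the small subunit, Utp20 rose, Nop14 fell and the other 12 did not pass. Utp20 encodes a large HEAT-repeat protein of the small subunit processing complex, and its signal was 11.22, 11.08, 11.07 and 11.10 on the Dox-untreated and 12.10, 11.67, 11.50 and 11.55 on the Dox-treated arrays. Its 1.5-fold rise was the largest coefficient of any member (0.59, standard error 0.0939, adjusted p = 0.0302 from limma), and the empty vector pair gave the highest of its log2 ratios, 0.88. Nop14 and Noc4l encode proteins that bind each other in early 40S maturation. Nop14 was at 10.52, 10.46, 10.58 and 10.42 without Dox and at 10.24, 10.19, 10.04 and 9.90 with Dox. It fell to 75.8%, close to the threshold (coefficient -0.40, standard error 0.0856, adjusted p = 0.0495 from limma). Nop14 failed to pass with centred arrays, repeated quantile normalization, no trend, the mean of probe sets or without probe sets ending in _x_at and _s_at, at adjusted p from 0.0504 to 0.0611 from limma. Nop14 has 1 probe set, so the settings on probe sets left its values as they were and changed only other genes of the fit. Its log2 ratios in the Nanog and Esrrb pairs, -0.53 and -0.51, were the lowest of any member there.

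Noc4l was the lowest member in the empty vector and 2i pairs. Its signal without Dox was 10.41, 10.40 and 10.32 in the first 3 backgrounds, with a difference of -0.41 from the first of these in Esrrb cells, and it was 9.56, 9.83, 10.02 and 9.74 with Dox, so that the Dox-treated Nanog array stood above the Dox-untreated Esrrb array. The coefficient of -0.50 did not pass (standard error 0.121, adjusted p = 0.0623 from limma), although all 4 of its probe sets were lower in 4 of 4 pairs. Noc4l passed among genes above the median signal and without probe sets ending in _x_at and _s_at, of which the one used here is one. Rcl1, which encodes a cyclase-like protein needed to cleave the precursor on the way to 18S ribosomal RNA, was at 10.24, 10.22, 10.30 and 10.08 without Dox and at 10.48, 10.72, 10.68 and 10.40 with Dox. These groups did not overlap, and the coefficient was 0.36 (standard error 0.0777, adjusted p = 0.0506 from limma). Tsr1, for a GTPase-like factor of late 40S assembly, had log2 ratios of -0.32, -0.42, -0.23 and -0.03. The U3 snoRNP partners Imp3 and Imp4 had coefficients of 0.10 and -0.12, but a dimmer probe set of Imp4 had -0.81, -0.57, -0.60 and -0.57. Wdr43, Wdr75 and Heatr1, which link transcription by RNA polymerase I to processing, had -0.10, -0.20 and 0.02, but a nearly as bright probe set of Wdr43 was lower in 4 of 4 pairs, with log2 ratios of -0.48, -0.52, -0.38 and -0.34. The helicase gene Ddx10 had -0.04, and the late factors Bysl, Ltv1 and Nob1, the last an endonuclease that makes the end of 18S ribosomal RNA, had -0.01, -0.11 and 0.04.

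Among the 13 measured factors for the large subunit, where NS itself is thought to act, Ebna1bp2 rose and the other 12 did not pass. Ebna1bp2 encodes EBP2, a partner of NS. Its signal was 10.80, 10.87, 10.89 and 10.67 on the Dox-untreated and 11.30, 11.11, 11.25 and 11.09 on the Dox-treated arrays. The groups did not overlap, and the rise was 1.3-fold (coefficient 0.38, standard error 0.0727, adjusted p = 0.0420 from limma). The call ended without the trend and with the mean of its probe sets, of which the other 2 are dim, at adjusted p of 0.0592 and 0.188. The other partners did not pass: Pes1 had log2 ratios of -0.03, -0.09, 0.11 and 0.22 (a dimmer probe set -0.20, -0.07, -0.29 and -0.40), and Ddx21 and Npm1 are given above.

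Pes1, Bop1 and Wdr12 encode the 3 subunits of the PeBoW complex, which processes the precursor of the large subunit RNA, and had coefficients of both signs. Bop1 had log2 ratios of 0.14 to 0.34, above 0 in 4 of 4 pairs, although its dimmer probe set had -0.15, -0.48, 0.22 and 0.50. Wdr12 was lower in 4 of 4: its signal was 10.91, 10.85, 10.69 and 10.54 without Dox and 10.37, 10.56, 10.47 and 10.22 with Dox, with a coefficient of -0.34 (standard error 0.0823, adjusted p = 0.0612 from limma). Only the Dox-treated 2i array stood above a Dox-untreated one, that of Esrrb. A dimmer probe set of Wdr12 had 0.07, 0.29, -0.10 and -0.04.

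Several other large subunit genes had positive coefficients without passing. Nop16 was at 8.94, 8.89, 9.13 and 8.95 without Dox and at 9.42, 9.47, 9.45 and 8.96 with Dox, a difference in the first 3 pairs and nearly none in the Esrrb pair (coefficient 0.34, adjusted p = 0.131 from limma). Nop2, for a cytosine methyltransferase of ribosomal RNA, had a coefficient of 0.26 and Nip7 of 0.20, and their Dox-treated and Dox-untreated arrays did not overlap, but a dimmer probe set of Nip7 was lower in 4 of 4 pairs. Noc3l had 0.23, although its other probe set was lower in 4 of 4 pairs. Rrs1, which helps to load the 5S particle, had 0.04, Noc2l -0.09 (with a dimmer probe set above 0 in 4 of 4 pairs), Grwd1 -0.06 and the helicase gene Ddx18 -0.20. The median coefficient was 0.05 over the large subunit genes and -0.07 over the small subunit genes.

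A second fit asked whether the response differed in cells with added Nanog or Esrrb. It tested the mean log2 ratio of the Nanog and Esrrb pairs minus the mean of the empty vector and 2i ones. No member passed, with 0.0824% of all genes called. At an unadjusted p under 0.05 from limma there were 5 members (11.9%) against 15.8% of all genes. All 5 had a positive difference: Rrp1b, Nolc1, Nop10, Noc4l and Nop56. The median difference over the members was 0.13, and 27 of 42 were above 0 (64.3%), against a median of -0.02 and 47.8% over all genes.

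Rrp1b, for a nucleolar protein that binds the PP1 phosphatase and chromatin, had the largest of these differences. Its signal was 11.42, 11.15, 11.14 and 10.90 on the Dox-untreated and 10.74, 10.60, 11.26 and 10.92 on the Dox-treated arrays. It was lower in both the empty vector and 2i pairs, by log2 ratios of -0.69 and -0.55, and at 0.11 and 0.02 in the other two. The difference was 0.68 (standard error 0.119, adjusted p = 0.0824 from limma), and its other 2 probe sets had -0.49 and -0.38 in the empty vector pair and 0.25 and 0.26 in the Nanog pair. For Nolc1 the difference was 0.50 (adjusted p = 0.149), for Noc4l 0.44 (adjusted p = 0.252) and for Nop10 0.43 (adjusted p = 0.182 from limma). Leaving out a pair leaves a single pair to stand for its side, which is assumed to vary like the others, so only the size of the difference is given. For Rrp1b it was 0.62, 0.75, 0.64 and 0.73 without the empty vector, 2i, Nanog or Esrrb pair, in this order. It ran from 0.43 to 0.58 for Nolc1, from 0.30 to 0.57 for Noc4l and from 0.29 to 0.56 for Nop10.

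The summed signal of trophoblast markers moved with this division. The log2 of the summed signal of 10 such genes was 13.73, 12.46, 11.02 and 11.20 with Dox and 10.60 to 11.34 without Dox. The keratin genes Krt8, Krt18 and Krt19 weigh most in this sum. On the empty vector arrays they were at 8.40, 7.48 and 6.43 without Dox and at 12.25, 11.89 and 11.39 with Dox. The mean log2 signal of the list was 8.38, 7.75, 6.62 and 6.62 with Dox and 6.22 to 6.64 without Dox. Among the transcription factor genes of the list, Cdx2 was at most 5.35 and Elf5 at most 3.47 on any array. These values are near or below the array medians over all probe sets, 5.31 to 5.36. Others were above those medians with Dox in the first 2 backgrounds. Eomes was at 7.84 and 8.57 there and Tfap2c at 10.34 and 9.99. Ascl2 was at 7.58 in 2i and higher still with the empty vector. Gata3 went from 4.03 to 5.99 and from 3.95 to 6.18. Eomes, Tfap2c and Ascl2 were above those medians on every array, so this level did not separate the backgrounds. Without Dox, Eomes was at 6.74 to 7.82 and Tfap2c at 8.79 to 9.36. With Dox, Eomes stood higher in Nanog and Esrrb cells (8.03 in the latter) than in empty vector cells. In all, 10 of the 10 markers were higher with Dox in each of the first 2 backgrounds. The part of this shift in the values of Rrp1b, Nolc1, Nop10, Noc4l and Nop56 was not tested. Fibroblast markers other than Thy1 were low, with Col1a1 at most 4.09. Thy1 was at 6.12 to 7.80 over the 8 arrays, above the array medians over all probe sets. The log2 of the summed signal of the list was 7.43 to 8.30.

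**Figure D4:**
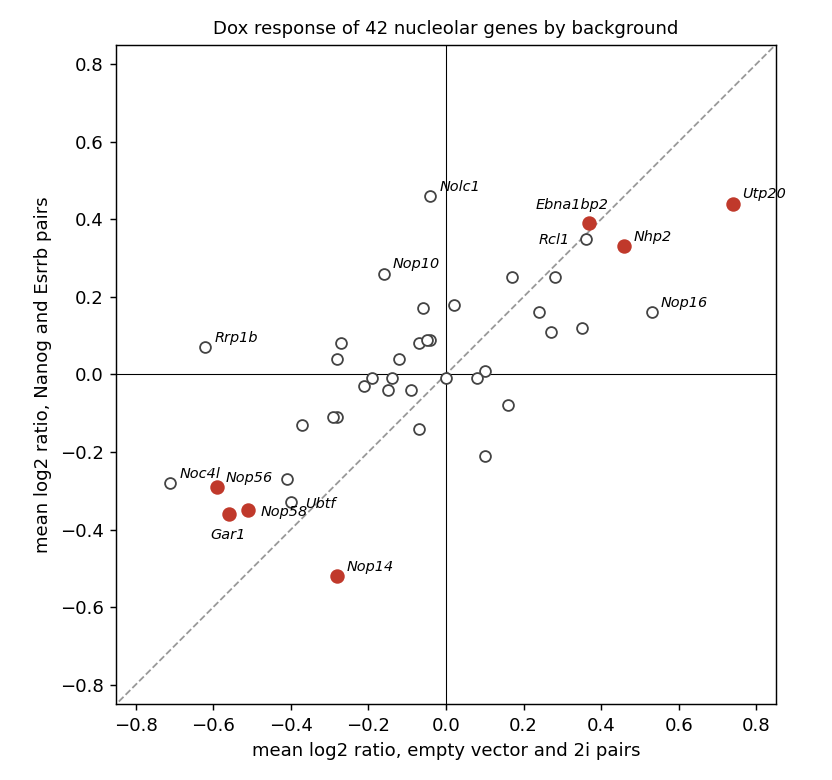
Mean log2 ratio of each of the 42 genes in the empty vector and 2i pairs (horizontal axis) and in the Nanog and Esrrb pairs (vertical axis), filled where the common test was passed, with a dashed line where both are equal. Rrp1b stands at -0.62 and 0.07 and Nolc1 at -0.04 and 0.46, while the filled points lie on the same side of 0 on both axes.

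Before Dox, most members were lower in Esrrb-overexpressing cells. Their array had 33 of the 42 genes below the empty vector array, with a median of -0.14 and single genes from -0.58 (Nolc1) to 0.28 (Bop1). The Nanog array had 20 of 42 below it, with a median of 0.00, and the 2i array 27, with a median of -0.03. Over all genes the medians were 0.03, 0.02 and 0.01 in that order, and 8350, 8315 and 8917 of the 18194 genes were below the empty vector array. The shift on the Esrrb array was not particular to the members. Of 111 other genes of ribosome biogenesis, described below, 75 were lower there, with a median of -0.08. No member differed over 2-fold, where 1.82% of all genes did on the Esrrb, 0.687% on the Nanog and 0.758% on the 2i array. After Nolc1, the lowest on the Esrrb array were Rrp1b with -0.52, Nop58 with -0.44, and Noc4l and Noc2l with -0.41 each. The reference array of these differences is also that of the empty vector log2 ratios, so both share it. Primitive endoderm markers moved with the Esrrb arrays: the log2 of the summed signal of 9 such genes was 11.73 and 10.91 on the Dox-untreated and Dox-treated Esrrb array and 9.33 to 10.49 on the other 6. On the Dox-untreated Esrrb array 7 of the 9 were above the median of all genes on that array. Among them were Gata6 at 8.39, Pdgfra at 8.42, Cubn at 8.18, Dab2 at 7.65 and Sox17 at 6.86. Gata4 at 5.58 and Foxa2 at 5.41 were not, although both were above the array medians over all probe sets, 5.31 to 5.36, used above for trophoblast and fibroblast markers. The part of the primitive endoderm shift in the lower values was not tested.

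**Figure D5:**
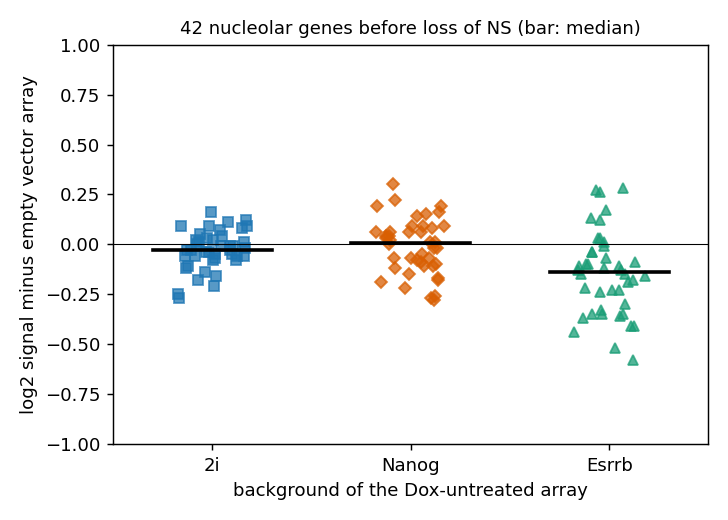
Log2 signal of each of the 42 genes on the Dox-untreated 2i, Nanog and Esrrb arrays minus that on the Dox-untreated empty vector array (vertical axis), with a bar at the median; horizontal spread within a column has no meaning. The median lies at -0.03, 0.00 and -0.14, and all points lie between -0.58 and 0.30.

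Of 115 other genes of ribosome biogenesis, 111 were measured, and 4 rose and 6 fell in the common test. That is 9.01% of them, near the 7.07% of all genes called in either direction, and the median coefficient was 0.01. Past 2-fold were 2 of the 111 with the empty vector and 1 in 2i, where 9.22% and 7.91% of all genes were. These genes thus moved little too, and the SD of their log2 ratio was 0.41, 0.36, 0.24 and 0.25, near that of the members. Polr1e, for a further RNA polymerase I subunit, rose by 1.06 (standard error 0.215, adjusted p = 0.0448 from limma). Its probe set ends in _x_at, a mark for probes that may bind other transcripts, and its log2 ratios were 1.56, 1.53, 0.56 and 0.59. Urb1, Utp3 and Nop53 rose by 0.50, 0.40 and 0.35. Eif6, which keeps the large subunit from joining early, fell by 0.52, Riok1, a kinase of late 40S maturation, by 0.50, and Senp3, a SUMO protease of the nucleolus, by 0.45. Utp11 and Gnl3l, the gene of the close relative of NS, each fell by 0.43; for Gnl3l the standard error was 0.0831 and the adjusted p from limma 0.0421. No gene of this list passed the test of the difference. Of 74 ribosomal protein genes, 42 had a probe set with 1 symbol, and of these Rpl37a rose by 0.28 and Rps6 fell by 0.56. These are 4.76% of the list, below the 7.07% of all genes, and the median coefficient was -0.02. The SD of the log2 ratio over this list was 0.29, 0.15, 0.12 and 0.16, below that of the members. The mean signal was 14.47 for the probe set of Rpl37a but 9.28 for that of Rps6, so the fall of Rps6 rests on a far dimmer probe set.

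Many nucleolar genes are targets of Myc, which binds the E-box CACGTG, so the promoters of the members were searched for these letters, which read the same on both strands. RefSeq promoter windows (GRCm38.p6, 250 bases before to 50 after a gene's start) were matched for 39 of the 43 listed genes. In 8 of the 39 (20.5%) a window held CACGTG, against 8.09% of 27025 genes. The motif holds a CpG, and windows of the members had a median of 15.5 CpG, against 6 over all windows. The shares are thus not matched for CpG content. Of the 7 genes that passed the common test only Utp20 did. The 8 matches are shown because they are the only motif searched, each as 30 bases in 5′ to 3′ direction with the motif in capitals. They lie at chr10:88826765-88826794 for Utp20 (minus strand), chr1:34439696-34439725 for Imp4 (plus), chr6:125131811-125131840 for Nop2 (plus), chr11:3963965-3963994 for Pes1 (plus), chr11:74898092-74898121 for Tsr1 (plus), chr17:71616220-71616249 for Wdr43 (plus), chr10:13193092-13193121 for Ltv1 (minus) and chr7:45830740-45830769 for Grwd1 (minus). The motif of Imp4 starts 121 and that of Nop2 60 bases before the gene's start, and the others start 2 to 37 bases after it.

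Utp20: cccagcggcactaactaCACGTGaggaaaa
Imp4: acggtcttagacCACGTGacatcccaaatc
Nop2: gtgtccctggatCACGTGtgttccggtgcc
Pes1: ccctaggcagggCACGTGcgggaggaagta
Tsr1: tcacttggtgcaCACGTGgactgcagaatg
Wdr43: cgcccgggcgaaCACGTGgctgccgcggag
Ltv1: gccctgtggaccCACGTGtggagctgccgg
Grwd1: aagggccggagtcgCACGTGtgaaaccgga

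Of these 8 genes Utp20 alone passed the common test, and the coefficients of the others ran from -0.25 for Tsr1 to 0.26 for Nop2. A match is a description of the letters and not a binding site. Myc itself had log2 ratios of 0.26, -2.07, -0.04 and 0.18, and the median of the 42 genes was -0.09, -0.10, 0.04 and 0.02. The 2i array without Dox lacked the fall of Dusp6, so loss of NS and 2i cannot be told apart in the -2.07. The part of Myc in the values of the members was not tested.

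Gar1 and Nhp2 are shown with the 250 bases before the gene's start because they belong to the same particle and moved in opposite directions. Neither window holds CACGTG. The Gar1 stretch (chr3:129831397-129831646, minus strand) is 61.6% G and C with 25 CpG, and the Nhp2 stretch (chr11:51619523-51619772, plus strand) 54.8% with 13 CpG; the median over 48 windows of the members was 57.4% with 15.5 CpG, and over all 32851 windows 52.4% with 6. Capitals mark the CpG positions.

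Gar1: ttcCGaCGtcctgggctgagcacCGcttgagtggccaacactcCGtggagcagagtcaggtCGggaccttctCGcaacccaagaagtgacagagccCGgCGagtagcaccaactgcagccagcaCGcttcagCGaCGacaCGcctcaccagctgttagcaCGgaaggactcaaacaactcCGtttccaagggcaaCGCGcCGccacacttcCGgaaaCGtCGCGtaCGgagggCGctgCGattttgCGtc
Nhp2: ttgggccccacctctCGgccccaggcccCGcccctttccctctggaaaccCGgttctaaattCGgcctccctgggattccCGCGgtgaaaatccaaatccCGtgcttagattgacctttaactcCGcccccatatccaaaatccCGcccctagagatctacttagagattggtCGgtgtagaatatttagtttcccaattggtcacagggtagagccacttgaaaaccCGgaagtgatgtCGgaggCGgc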

How the data were processed

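RNA of 8 conditions was measured on 1 Affymetrix mouse array each (Genome 430 2.0). The authors subtracted the background, normalized the arrays together and summarized the probe sets with RMA in R (affy per the labels; versions not given in the sources used here), and deposited log2 signals; the log base was read from the values, 1.82 to 14.6. No depth applies, and precision is limited by how few arrays there are. Quantile normalization hides a shift of all genes in 1 direction, and RMA compresses ratios of dim genes.

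Of 45101 probe sets, 34958 have 1 gene symbol, 932 several and 9211 none in the platform annotation; genes were named only from the first. 34754 matched RefSeq by Entrez ID, and 0 symbols changed.

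limma 3.58.1 in R 4.3.3 (lmFit, eBayes with trend) fitted log2 signal on background and Dox, with 3 residual degrees of freedom, and on their interaction, with 2; the threshold was an adjusted p of 0.05 over all genes. The 4 pairs stand in for replicates, so p-values measure their spread. The fits were tested on simulated data. Tables used Python 3.11.15 with pandas 2.3.3. The members and all lists were chosen with earlier results of these data known. Values on every array are given for the 12 members with the largest common coefficients, the 4 with the largest differences and the 3 highest and 3 lowest of each pair, and for Npm1 in addition; of other lists, up to 5 genes called in each direction are named. Alternatives were other choices of probe set, a filter on dim genes, other scaling, no trend, no block, other thresholds, the empty vector array as reference for 2i, and leaving out each pair.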

Additional observations from a re-analysis of the deposited data

How the results depend on the processing

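In the common test 7 of the 42 members were called (16.7%, with 7.07% of all genes). Among genes above the median signal 11 were (26.2%, with 18.6%), and with no trend 4 (9.52%, with 5.85%). Centred arrays, repeated quantile normalization and no replicate block gave 7 each (16.7%, with 6.86%, 6.68% and 6.99%). Probe sets averaged per gene gave 6 (14.3%, with 4.79%), and so did leaving out _x_at and _s_at probe sets (15.0%, with 6.38%). At an adjusted p of 0.1 from limma there were 12, and the share over all genes was not counted. Each setting keeps a number of genes, not always the same ones. Leaving out a pair gave 0 to 0. Nop58, Nhp2 and Utp20 passed under each of these settings that keep all pairs at a threshold of 0.05, and no called gene changed sign under any of them. Nop58 and Utp20 have 1 probe set each, so the settings on probe sets changed only other genes of their fits. Over all genes 1287 were called, 871 to 1272 under the settings that keep all genes or all but _x_at and _s_at probe sets and all pairs, and 3 to 35 with a pair left out. For the difference 15 of all genes were called, 77 with centred arrays and 87 without _x_at and _s_at probe sets. With probe sets averaged 1 was called, with no trend 1, and above the median signal 0. The number of members called for the difference was 0 under each setting with all pairs. With a pair left out a single pair stood for its side, so no count is given. At 1.5-fold the count went from 0 to 5 in the empty vector and to 1 in the 2i pair. The median log2 ratio in the Nanog pair was -0.04 with probe sets averaged. With the empty vector Dox-untreated array as reference for 2i, 0 members were past 2-fold and the median was -0.09. The cause of these shifts was not tested. Genes near the array median are limited by signal over background, which touches dim probe sets of the members and not the chosen ones.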
